A study of Mus musculus with 34 samples.

Results

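Retinoic acid signalling was followed in sorted mouse stromal cells through 9 genes that receive, bind or remove the hormone: the receptor genes Rara, Rarb, Rarg and Rxra, the binding protein genes Crabp1 and Crabp2, the clearance enzyme genes Cyp26a1 and Cyp26b1, and the responder gene Rarres2. They were taken by symbol from the 51826 gene identifiers of the count tables, and all 9 were found. All 9 passed the filter on low counts and were among the 25705 genes tested. Cyp26a1, Crabp1 and Crabp2 have values near 0 in most groups and passed through the few groups in which they are higher. Crabp2 passed through bone alone, and the other 8 would also pass without the bone libraries.

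Retinoic acid is made from vitamin A inside the cell and acts through nuclear receptors. A retinoic acid receptor (RAR) pairs with a retinoid X receptor (RXR) on DNA and turns target genes on when retinoic acid binds. CRABP proteins hold retinoic acid in the cytoplasm, and CYP26 enzymes oxidise it for removal. Rarb and Cyp26a1 are themselves well-known targets of the receptors. Rarres2 encodes chemerin, a secreted protein first described as a product of a retinoid-induced gene and known as a chemoattractant for leukocytes and as an adipokine. In the body wall and viscera, mesothelial cells are known as a source of retinoic acid.

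The receptor binding site is classically a direct repeat of a 6-base half-site, and the promoters of the members were searched for it. Windows of 250 bases before to 50 after each start, from RefSeq on GRCm38.p6, were available for 7 of the 9 genes (12 windows). They were scanned on both strands for direct repeats spaced by 1, 2 or 5 bases, taking AGGTCA as a half-site, with AGTTCA counted as well, GGGTCA also allowed and GGTTCA likewise. Of the 7 genes 2, Rarb and Cyp26a1, held a repeat in a window, in both cases with a spacing of 5. Of all 32817 RefSeq windows of this length 0.0975% held a repeat with spacing 5, 0.268% with spacing 2 and 0.222% with spacing 1. The stretches are shown because both genes are known targets of the receptors and had their highest levels in different groups, as given below. Capitals mark the repeat, which in Cyp26a1 reads on the other strand.
Rarb, chr14:16575507-16575535, minus strand, 53 to 37 bases before the RefSeq start: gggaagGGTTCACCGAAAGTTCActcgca
Cyp26a1, chr19:37697751-37697797, plus strand, 32 to 16 bases before the start: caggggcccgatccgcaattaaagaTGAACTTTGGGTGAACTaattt
The Rarb repeat lies inside the first exon of the longer GENCODE transcripts Rarb-201 and Rarb-207, upstream of the start that RefSeq gives. A match of letters is a description and says nothing of binding in these cells.

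Polyadenylated RNA was sequenced in 34 libraries that fall into 12 groups. Per the labels, the sort took PDPN+ (podoplanin) cells that lacked CD45, CD31 as well as Epcam. PDGFRA+ cells among them are called fibroblasts, and PDGFRA- cells mesothelial, the type that lines the body cavities. Fibroblasts came from omentum, mesentery and epididymal fat (labelled visceral fat), inguinal fat and brown adipose tissue (labelled subcutaneous fat), bone, pancreas, lymph node and spleen, and mesothelial cells from the 3 visceral depots. There were 3 libraries in a group, but 2 for pancreas and 2 for spleen, and all libraries carry a label of GFP-negative whose reporter is not named. Strain, genotype, age and sex are not in the labels used here, nor is it said whether the libraries of a group come from separate animals, so p-values measure the spread between these libraries only. Totals ran from 28.7 M to 42.3 M counts with a median of 33.5 M.

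The mesothelial markers followed the labels, and the fibroblast markers did so only in part. The 8 mesothelial markers summed to 8500 to 12900 CPM in the mesothelial libraries and to 80.0 to 710 CPM in the fibroblasts of the same 3 depots, the highest being the omentum fibroblasts. Pdgfra was lower in mesothelial cells by a log2 difference of -6.63 ± 0.13 (SE). The whole list of 7 fibroblast markers, all detected, separated the cell types less, at 23300 to 29600 CPM in mesothelial libraries and 29300 to 41900 CPM in the fibroblasts of these depots, with an overlap in the omentum. Markers of other cells were also present. The 10 pancreatic acinar genes summed to 38700 and 136000 CPM in the pancreas libraries, to 806 to 3760 CPM in omentum and mesentery fibroblasts and to 53.2 to 7200 CPM in omentum and mesentery mesothelial cells. The 4 skeletal muscle genes summed to 4670, 4720 and 328 CPM in the bone libraries, the 5 mural genes to 951 to 1310 CPM in lymph node fibroblasts, and the 7 leukocyte genes to 842 to 1860 CPM in mesentery, 635 to 772 CPM in omentum and 104 to 246 CPM in epididymal mesothelial cells. The 4 Schwann genes summed to 61.7 to 135 CPM in mesothelial libraries and 3.06 to 18.4 CPM in the fibroblasts of the same depots. The mural genes summed to 205 to 662 CPM and 61.7 to 259 CPM in that order, without overlap within a depot. The part of these markers in the differences between the cell types was not tested. In bulk RNA, fewer cells of a type and less RNA per cell cannot be told apart.

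On a scale per gene length and library total (TPM), Rarres2 was the most abundant member, with a median of 743 over the 12 group means. Rxra followed at 12.8, Rarg at 6.07, Rarb at 5, Rara at 2.11 and Cyp26b1 at 1.56, while Crabp1 (0.399), Crabp2 (0.205) and Cyp26a1 (0.0767) were near 0. Cyp26a1 had a count in 15 of 34 libraries, Crabp1 in 26 and Crabp2 in 27, and the other 6 in all 34. The rest of the text compares a gene with itself between groups in counts scaled to library size (CPM, with TMM scaling). When the 12 groups were ordered by mean CPM, 9 to 11 of the 11 neighbouring pairs overlapped in their libraries for every member, so few steps in an order exceed the spread.

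**Figure D1:**
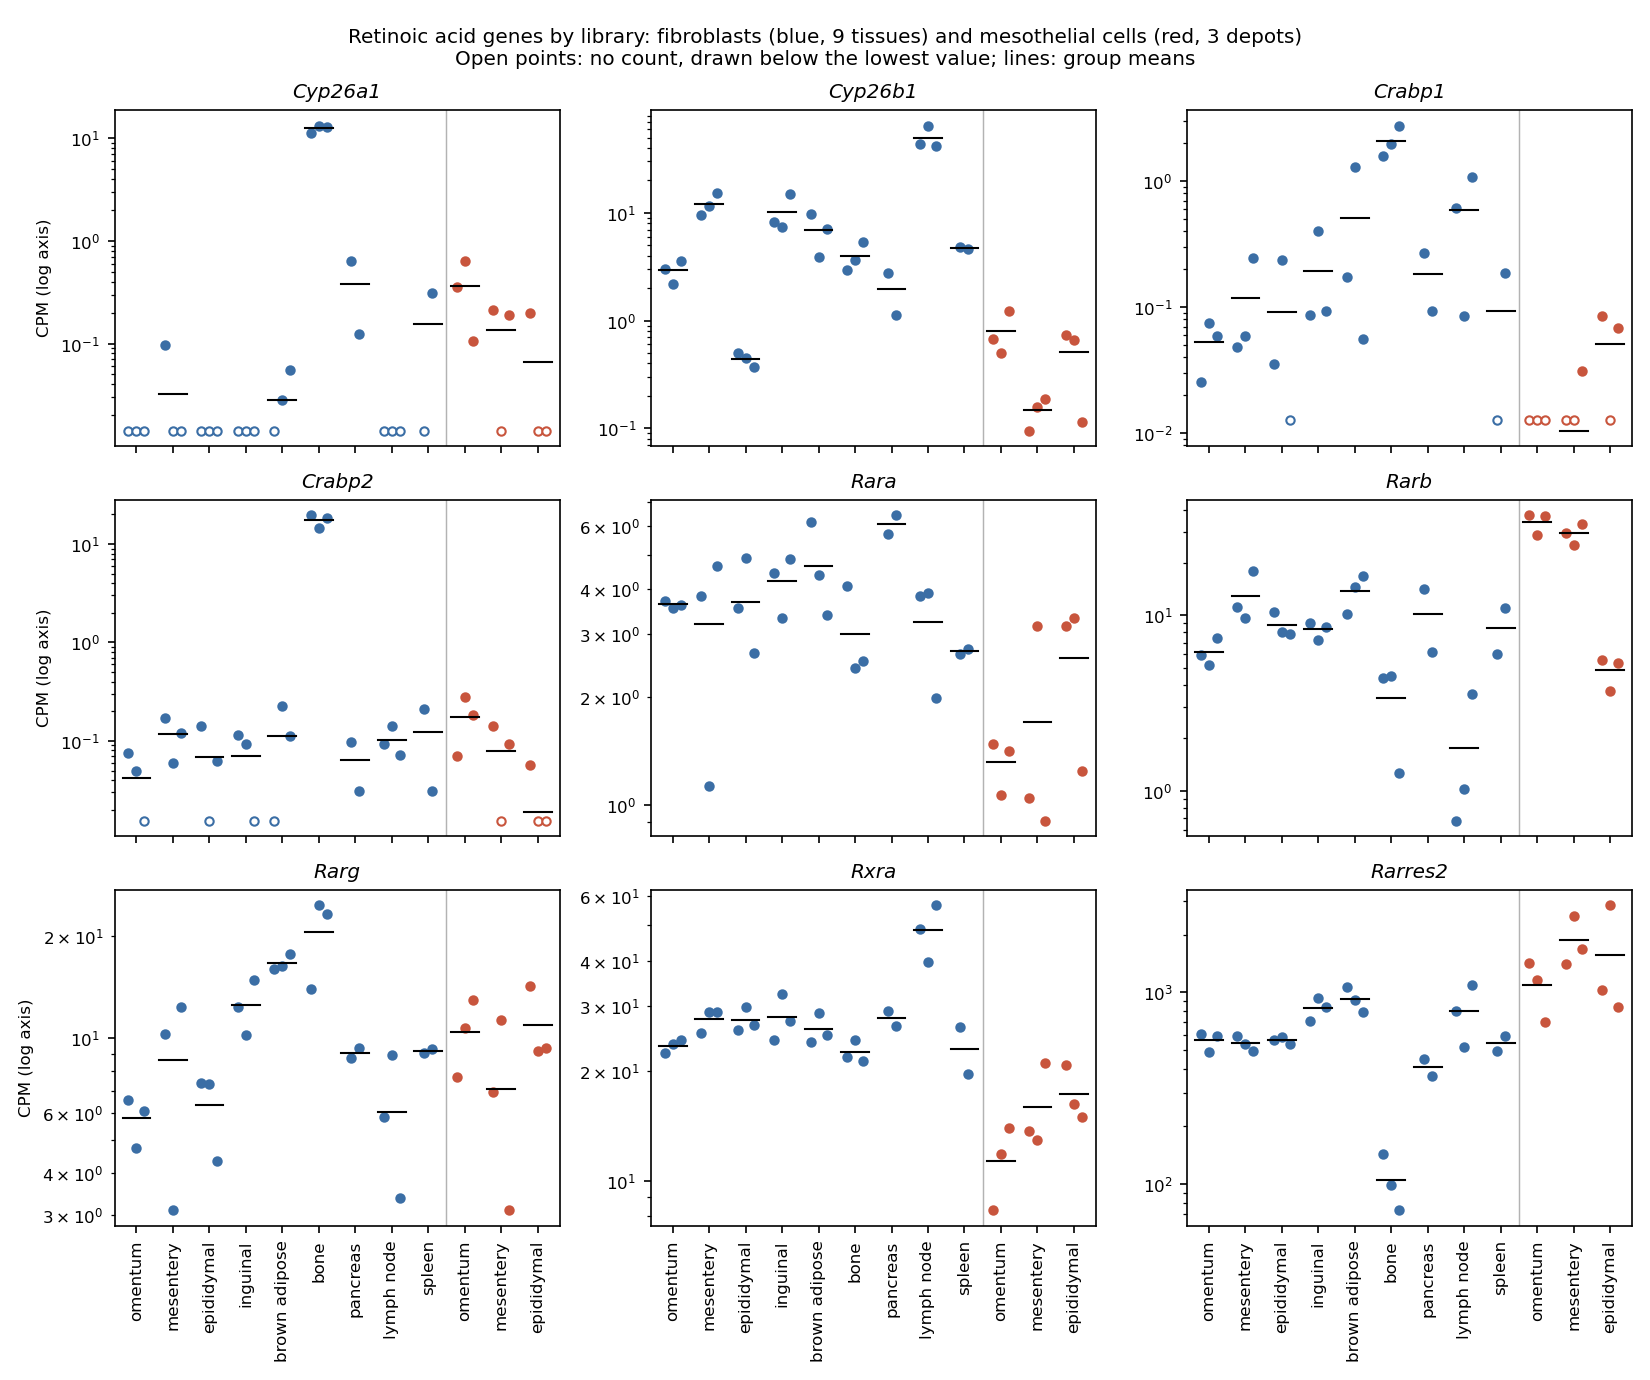
CPM of the 9 genes (log axis) in each of the 34 libraries, fibroblasts of 9 tissues in blue and mesothelial cells of 3 depots in red; short lines are group means and open points have no count. The bone libraries stand above all others for Cyp26a1, Crabp1 and Crabp2 and below all others for Rarres2, and Cyp26b1 and Rxra are highest in the lymph node libraries.

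Rarb (ENSMUSG00000017491, GRCm38 chromosome 14, 16430839 to 16819156, minus strand), the receptor gene that retinoic acid itself induces in many cells, was the most variable of the receptors. In omentum mesothelial cells it stood at 37.1, 28.7 and 37.0 CPM and in mesentery mesothelial cells at 29.6, 25.3 and 33.1 CPM. These 6 libraries lay above all other 28. In epididymal mesothelial cells the values were 5.55, 3.70 and 5.34 CPM, below the 10.5, 8.02 and 7.79 CPM of the fibroblasts of that depot. Omentum fibroblasts had 5.95, 5.20 and 7.44 CPM and mesentery fibroblasts 11.1, 9.71 and 17.8 CPM, so mesothelial and fibroblast libraries did not overlap in any of the 3 depots.

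The log2 difference of Rarb between mesothelial cells and fibroblasts was 2.47 ± 0.38 in the omentum (adjusted p = 7.62e-06, from edgeR's quasi-likelihood F-test and adjusted over all genes tested by Benjamini-Hochberg, as throughout), 1.19 ± 0.37 in the mesentery (adjusted p = 0.0152) and -0.85 ± 0.39 in epididymal fat (adjusted p = 0.0935). The 3 differences were themselves different, with a range of 3.32 on the log2 scale (adjusted p = 0.000214). The mesentery call was lost without mesentery mesothelial replicate 1 (1.07, adjusted p = 0.0608), fibroblast replicate 1 (1.09, 0.0710) or fibroblast replicate 2 (1.02, 0.0864). Among mesothelial cells, Rarb was higher in the omentum than in epididymal fat by 2.81 ± 0.39 (adjusted p = 5.64e-06) and higher in the mesentery than in epididymal fat by 2.59 ± 0.39 (adjusted p = 3.64e-05). Omentum and mesentery mesothelial cells differed by 0.22 ± 0.36 (adjusted p = 0.775). The leukocyte genes, all 7 detected, moved with Rarb across these depots, being lower in epididymal mesothelial cells, and their part in the result was not tested.

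Among fibroblasts Rarb was lowest in the lymph node, at 0.676, 1.02 and 3.56 CPM, and in bone, at 4.38, 4.50 and 1.26 CPM. The brown adipose libraries had 10.2, 14.5 and 16.8 CPM. Against the mean of the other 8 tissues the log2 difference was -2.30 ± 0.37 in the lymph node (adjusted p = 9.64e-06) and -3.29 without its replicate 3, the highest of the 3. It was -1.17 ± 0.33 in bone (adjusted p = 0.00655), a call lost without bone replicate 3 (-0.79, adjusted p = 0.111), and 1.10 ± 0.26 in brown adipose tissue (adjusted p = 0.00360), lost without its replicate 3 (0.94, adjusted p = 0.0642). An exon of Rarb overlaps an exon of Top2b on the opposite strand, and it is not stated whether the counting used strand, so reads there cannot be told apart; Top2b stood at 35.5 to 48.4 CPM in all 12 groups.

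Rarg (ENSMUSG00000001288, chromosome 15, 102234938 to 102257517, minus strand), the receptor gene known for its role in skeletal and skin development, was highest in bone fibroblasts, at 14.0, 24.7 and 23.3 CPM. Brown adipose fibroblasts followed with 16.0, 16.3 and 17.7 CPM, which overlapped the bone libraries. Omentum fibroblasts were lowest in the mean with 6.59, 4.75 and 6.09 CPM. Bone exceeded the mean of the other tissues by 1.24 ± 0.26 (adjusted p = 0.000252). The brown adipose difference of 0.90 ± 0.26 had an adjusted p of 0.0232 and missed the required log2 change of 1.

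Rara (ENSMUSG00000037992, chromosome 11, 98927818 to 98974942, plus strand), the broadly expressed receptor gene, was low in all groups. Its group means ran from 1.33 CPM in omentum mesothelial cells to 6.07 CPM in pancreas fibroblasts, and all 11 neighbouring pairs in the order of groups overlapped. Across the 9 fibroblast tissues it was the member that did not pass the test (range 1.17, adjusted p = 0.384). In the omentum, mesothelial cells had 1.48, 1.07 and 1.42 CPM against 3.72, 3.56 and 3.63 CPM in fibroblasts, without overlap. That difference was -1.46 ± 0.45 (adjusted p = 0.0165), lost without omentum mesothelial replicate 2 (-1.33, adjusted p = 0.0765). Over the 3 depots the mean difference was -0.98 ± 0.25 (adjusted p = 0.00220), just short of the required size. It passed with RLE or upper-quartile scaling, without the filter and with DESeq2 (-1.03), and when any 1 of 9 libraries was left out, at up to -1.24 without mesentery mesothelial replicate 2. In the mesentery alone the difference was -0.94 (adjusted p = 0.140) and was called without mesothelial replicate 2 (-1.71, adjusted p = 0.0103) or fibroblast replicate 2 (-1.33, adjusted p = 0.0226).

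Set beside each other per length, the receptor genes divided the groups by which RAR transcript prevailed. Rarb made up 70.2% ± 5.65 (SD, n = 3) of the summed RAR TPM in omentum mesothelial cells and 73.6% ± 14.2 in mesentery mesothelial cells, but 23.0% ± 5.20 in epididymal mesothelial cells. Rarg made up 77.5% ± 11.3 in bone fibroblasts and 62.6% ± 2.92 in epididymal mesothelial cells. It also had the largest mean share in fibroblasts of lymph node (55%), inguinal fat (53.4%), brown adipose tissue (51.5%) and spleen (49.6%). In the pancreas its mean share was 39.6%, but its 2 libraries (33.8% and 45.3%) overlapped those of Rarb (24.3% and 44.5%). By the length of the longest transcript, pancreas means were 7.4 TPM for Rarb and 6.32 TPM for Rarg. Omentum fibroblasts had 4.58 and 4.51 TPM in that order, so which gene led there depends on the length used. In the fibroblasts of the 3 visceral depots the mean shares of Rarb were 34.8% to 50% and those of Rarg 36.7% to 40.3%. Rara reached its highest mean share, 29.5% ± 6.72, in the lymph node, where the summed RAR level was the lowest of the 12 groups at 6.95 ± 2.15 TPM. The sum was highest in omentum (23.0 ± 6.30 TPM) and mesentery (23.0 ± 2.86 TPM) mesothelial cells. Shares rest on summed exon lengths, which overstate the length of genes with many alternative exons.

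**Figure D2:**
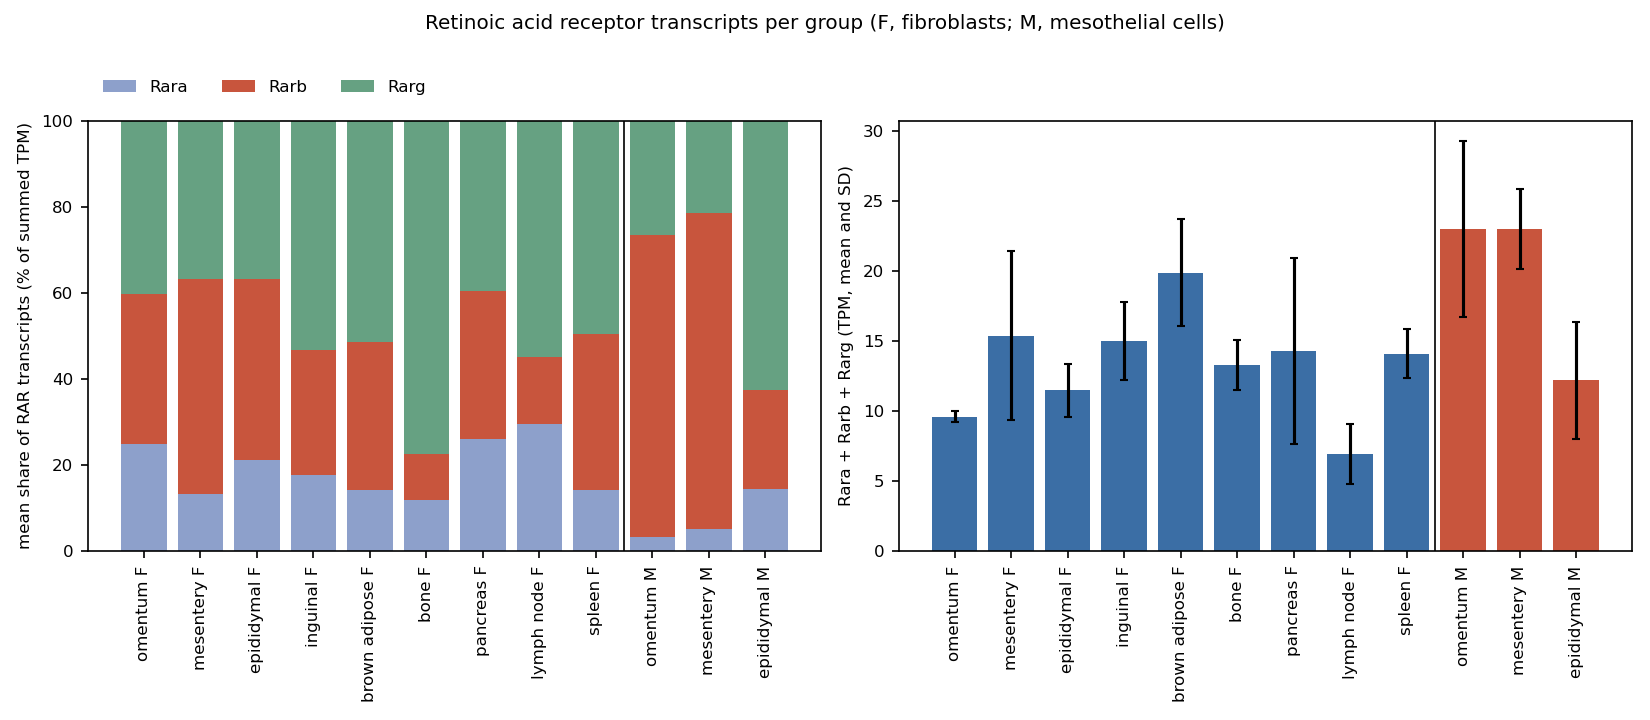
Left, mean share of Rara, Rarb and Rarg in their summed TPM in each of the 12 groups; right, the summed TPM with SD over libraries (F, fibroblasts; M, mesothelial cells). Rarb fills 70.2% and 73.6% of the bars of omentum and mesentery mesothelial cells and Rarg 77.5% of the bar of bone fibroblasts.

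Rxra (ENSMUSG00000015846, chromosome 2, 27676440 to 27762957, plus strand) encodes the RXR partner of the receptors and ran opposite ways in lymph node fibroblasts and mesothelial cells. The lymph node libraries had 48.8, 39.7 and 56.7 CPM, above all other 31 libraries, and the other 8 fibroblast tissues had group means of 22.4 to 28.0 CPM. The mesothelial means were lower, at 11.3 CPM for the omentum, 15.9 CPM for the mesentery and 17.3 CPM for epididymal fat. Mesothelial and fibroblast libraries did not overlap in any of these depots. The lymph node excess of 0.92 ± 0.14 (adjusted p = 2.01e-06) and the mean mesothelial difference of -0.84 ± 0.11 (adjusted p = 2.29e-07) passed on p but not on size. In the omentum the difference was -1.04 ± 0.20 (adjusted p = 0.000141) and passed both, but not without omentum mesothelial replicate 1 (-0.87, adjusted p = 0.00282). Leaving out epididymal mesothelial replicate 1 took the mean difference past the size (-1.01), as leaving out mesentery mesothelial replicate 3 did in the mesentery (-1.06).

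Both binding protein genes were highest in bone, and Crabp2 was near 0 elsewhere. Crabp2 (ENSMUSG00000004885, chromosome 3, 87948666 to 87953376, plus strand), whose protein is known to hand retinoic acid to the receptors, stood at 19.5, 14.5 and 18.4 CPM in bone fibroblasts. No other group had a mean over 0.177 CPM, and no other library more than 10 counts. Since Crabp2 passed the filter on low counts only through bone, it had to differ there, and its level is given as a description. Crabp1 (ENSMUSG00000032291, chromosome 9, 54764748 to 54773110, plus strand), whose protein is thought to sequester retinoic acid or speed its breakdown, had 1.57, 1.97 and 2.76 CPM in bone. It had 0.615, 0.0847 and 1.07 CPM in the lymph node and 0.173, 1.30 and 0.0558 CPM in brown adipose tissue, where 1 library of 3 holds most of the signal. The bone difference was 3.63 ± 0.44 (adjusted p = 7.24e-09). In mesothelial cells Crabp1 had no count in any omentum library and at most 3 counts in any other.

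Cyp26a1 (ENSMUSG00000024987, chromosome 19, 37697798 to 37701536, plus strand), the clearance gene that retinoic acid strongly induces, was highest in bone. The bone libraries held 316, 359 and 323 counts, or 11.3, 13.3 and 12.8 CPM. Fibroblasts of omentum, epididymal fat, inguinal fat and lymph node held no count in any of their 12 libraries, against which the bone mean was at least 391-fold to 472-fold higher (bound from 3 counts over the group, counting error only). Bone passed the test against the other tissues (adjusted p = 2.61e-19). Pancreas fibroblasts had 26 and 4 counts and passed too (adjusted p = 0.00798), but not without pancreas replicate 1 (adjusted p = 0.569).

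In mesothelial cells Cyp26a1 was low but detected, with 10, 23 and 4 counts in the omentum libraries, 9, 0 and 6 in the mesentery and 7, 0 and 0 in epididymal fat. Omentum fibroblasts had none, so the omentum mesothelial level of 0.364 CPM was at least 13.8-fold higher (adjusted p = 0.0119). That call was lost without omentum mesothelial replicate 2 (adjusted p = 0.0857) or omentum fibroblast replicate 2 (0.0534). The mean over the 3 depots passed as well (adjusted p = 0.0122), but not without epididymal mesothelial replicate 1, the one epididymal library with a count (adjusted p = 1).

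Cyp26b1 (ENSMUSG00000063415, chromosome 6, 84571414 to 84593908, minus strand), the clearance gene known to keep developing tissues low in retinoic acid, had another distribution. Lymph node fibroblasts had 43.3, 64.6 and 41.7 CPM, and no library of another group exceeded 15.2 CPM. Mesentery fibroblasts followed with 9.46, 11.5 and 15.2 CPM and inguinal fibroblasts with 8.25, 7.44 and 15.1 CPM. Epididymal fibroblasts had 0.496, 0.446 and 0.371 CPM, below every library of the other 8 fibroblast tissues. The fitted range across the 9 tissues was 6.83 on the log2 scale (adjusted p = 1.25e-14).

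Against the mean of the other 8 tissues, Cyp26b1 differed by 3.72 ± 0.20 in the lymph node (adjusted p = 1.22e-16), 1.42 ± 0.24 in the mesentery (adjusted p = 8.67e-05), 1.16 ± 0.24 in inguinal fat (adjusted p = 0.000912), -1.51 ± 0.38 in the pancreas (adjusted p = 0.00545) and -3.96 ± 0.42 in epididymal fat (adjusted p = 2.08e-08). The inguinal call was lost without inguinal replicate 3 (0.77, adjusted p = 0.118) and the pancreas call without pancreas replicate 2 (-1.03, adjusted p = 0.192); without pancreas replicate 1 it was -2.32. The 5 mural markers moved with the lymph node result, all 5 being detected, at 951 to 1310 CPM there and 11.4 to 259 CPM in the other fibroblasts, and their part in it was not tested. The 7 leukocyte genes, all detected, were high there too, at 395 to 883 CPM, beside 387 to 548 CPM in omentum fibroblasts, 18.9 and 392 CPM in the pancreas and 9.27 to 87.6 CPM in the other 6 tissues. Their part in the lymph node values of Cyp26b1, Rxra and Rarb was not tested.

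In mesothelial cells Cyp26b1 was low in every depot, at 0.670, 0.496 and 1.24 CPM in the omentum, 0.0951, 0.158 and 0.188 CPM in the mesentery and 0.740, 0.665 and 0.114 CPM in epididymal fat. Fibroblasts of the omentum had 3.01, 2.19 and 3.57 CPM, so that omentum and mesentery fibroblasts lay above the mesothelial libraries and epididymal fibroblasts lay among them. The difference between mesothelial cells and fibroblasts was -1.84 ± 0.44 in the omentum (adjusted p = 0.00176), -6.36 ± 0.54 in the mesentery (adjusted p = 1.90e-11) and 0.14 ± 0.63 in epididymal fat (adjusted p = 0.889). These differences were unequal between depots, with a range of 6.51 (adjusted p = 3.23e-06). The fibroblast means were 2.93, 12.1 and 0.437 CPM in the order given, and the mesothelial means 0.801, 0.147 and 0.507 CPM. Omentum mesothelial cells exceeded those of the mesentery by 2.48 ± 0.70 (adjusted p = 0.0245), on 19, 18 and 47 against 4, 5 and 6 counts. That call was lost without any 1 mesentery mesothelial replicate (2.25, 2.55 and 2.69, adjusted p = 0.139, 0.0519 and 0.0617) or without omentum mesothelial replicate 3 (1.99, 0.145).

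**Figure D3:**
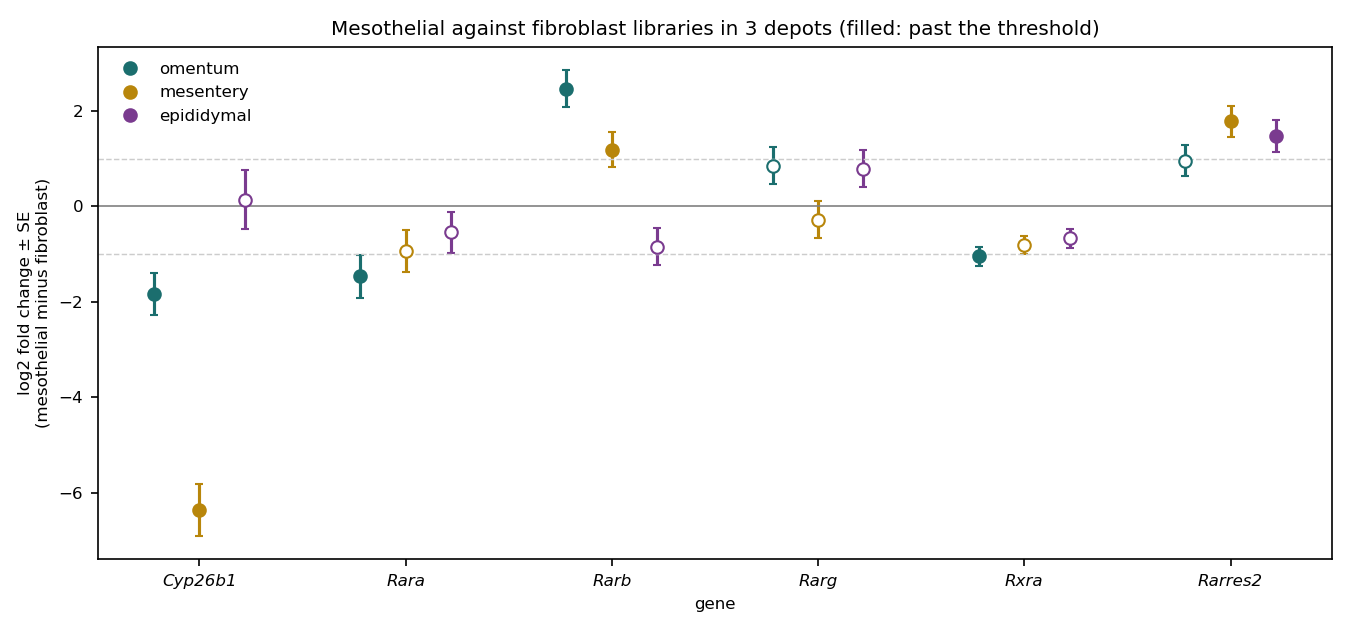
Log2 fold change (mesothelial minus fibroblast, ± SE) of the 6 members with counts in all 34 libraries, by depot; filled points passed both an adjusted p under 0.05 and a change of at least 1, the dashed lines. Cyp26b1 spreads from -6.36 in the mesentery to 0.14 in epididymal fat and Rarb from 2.47 in the omentum to -0.85 in epididymal fat.

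Rarres2 (ENSMUSG00000009281, chromosome 6, 48569696 to 48572789, minus strand), the chemerin gene, was abundant in all groups and lowest in bone. Mesothelial libraries had 1420, 1160 and 699 CPM in the omentum, 1410, 2500 and 1690 CPM in the mesentery and 1030, 2840 and 840 CPM in epididymal fat. The fibroblasts of these depots lay together at 488 to 604 CPM, and every mesothelial library was above them. Other fibroblasts overlapped the mesothelial libraries, at 709 to 930 CPM in inguinal fat, 793 to 1060 CPM in brown adipose tissue and 519 to 1090 CPM in the lymph node. Bone fibroblasts had 143, 99.0 and 72.9 CPM, and the lowest of the other fibroblast libraries had 366 CPM.

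Mesothelial cells exceeded fibroblasts in Rarres2 by 1.78 ± 0.33 in the mesentery (adjusted p = 9.22e-05), 1.48 ± 0.33 in epididymal fat (adjusted p = 0.000781) and 0.96 ± 0.32 in the omentum (adjusted p = 0.0300, short of the required size, and 1.20 without omentum mesothelial replicate 3). Epididymal mesothelial replicate 2 carried much of its depot's value, which without it was 0.73 (adjusted p = 0.0423). The mean over depots was 1.41 ± 0.19 (adjusted p = 3.07e-07), and the depots were not told apart by the test (range 0.82, adjusted p = 0.402). Bone fell short of the other tissues by -2.57 ± 0.30 (adjusted p = 3.54e-08). Rarres2 shares 2 exon overlaps with Lrrc61 on the opposite strand, which stood at 5.10 to 14.5 CPM.

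The 3 receptors that bind chemerin divided between the cell types in the mean over the 3 depots where both were sorted. Cmklr1, the signalling receptor, had 4.43 to 17.8 CPM in the fibroblasts of the 3 depots and 0.0276 to 0.297 CPM in the mesothelial libraries, with a mean log2 difference of -6.06 ± 0.28 (adjusted p = 3.06e-19). Gpr1, a second receptor, was higher in mesothelial cells by 4.03 ± 0.23 (adjusted p = 2.39e-16), and Ccrl2, which binds chemerin without signalling, by 1.53 ± 0.16 (adjusted p = 1.45e-09). In the omentum alone the Ccrl2 difference, 0.98, fell short of the required size. Among fibroblasts Gpr1 was highest in the subcutaneous depots, at 28.1, 23.8 and 32.6 CPM in inguinal fat and 30.9, 42.5 and 37.6 CPM in brown adipose tissue, against 0.228 to 8.70 CPM in all other fibroblast libraries. These subcutaneous values lay within the 7.48 to 45.6 CPM of the mesothelial libraries. Ccrl2 was highest in the omentum, at 74.4, 42.5 and 81.7 CPM in its fibroblasts. Pancreas fibroblasts had the most Cmklr1, at 23.9 and 28.1 CPM.

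**Figure D4:**
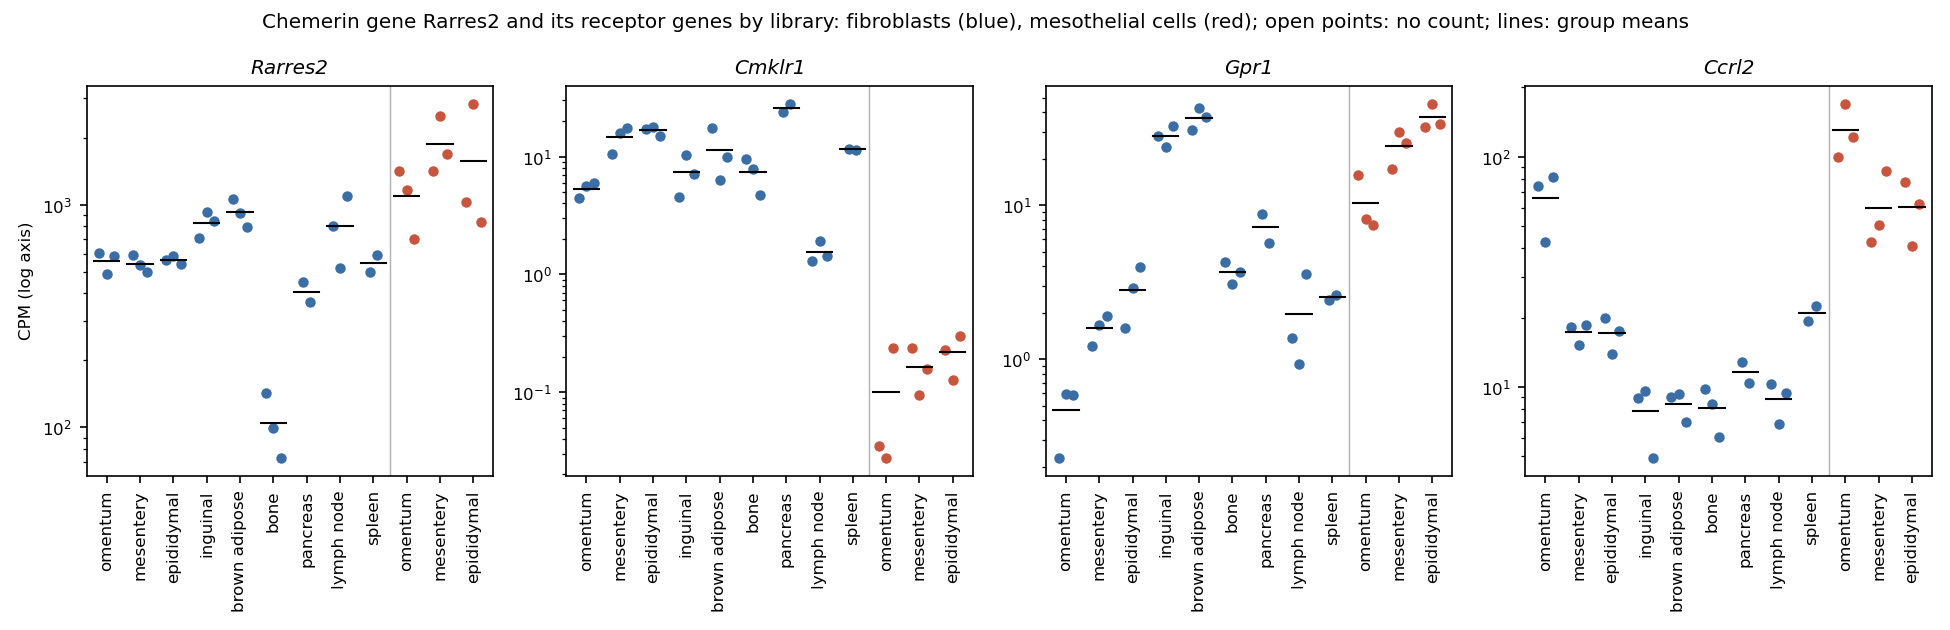
CPM (log axis) of Rarres2 and of the chemerin receptor genes Cmklr1, Gpr1 and Ccrl2 in each library, fibroblasts in blue and mesothelial cells in red, with group means as lines. The red points lie at the top for Rarres2 and at the bottom, under 0.3 CPM, for Cmklr1.

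Counted over the comparison of mesothelial cells with fibroblasts, averaged over the 3 depots, 3 of the 9 members passed the threshold (adjusted p under 0.05 and a log2 change of at least 1). Cyp26a1 and Rarres2 were higher, where 12.3% of all genes tested were called higher, and Cyp26b1 was lower, where 9.08% were called lower. In the omentum 5 members were called, with Cyp26a1 and Rarb higher (8.1% of all genes higher) and Cyp26b1, Rara and Rxra lower (8.79% lower). In the mesentery 3 were called, with Rarb and Rarres2 higher (10.8%) and Cyp26b1 lower (7.53%). In epididymal fat Rarres2 alone was called higher (16.6%) and no member lower (8.16%). The count of 0 lower was the same with edgeR and DESeq2, and 2, Rarb and Rxra, had an unadjusted p under 0.05 by edgeR. Of these Rxra passed on adjusted p but not on size (-0.67, adjusted p = 0.00922). The difference between depots was called for Cyp26b1 and Rarb, against 10.9% of all genes. The median log2 change of the 9 was -0.04 in the mean and, by depot in the same order, 0.86, -0.48 and -0.54, beside medians over all genes of 0.11, -0.09, 0.09 and 0.33. These comparisons share libraries and are not independent of each other.

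The acinar genes moved with the omentum and mesentery groups. With the 7 libraries of 2000 acinar CPM or more left out, a setting chosen after seeing the data, 1 of the 5 omentum calls held, that of Rarb (2.67, adjusted p = 0.00254). That setting leaves 1 omentum fibroblast library, whose spread is taken from the other groups. In it Cyp26b1 was -1.32 (adjusted p = 0.183), Rara -1.50 (0.138) and Rxra -0.88 (0.0406) in the omentum. In the mesentery Rarb was 1.08 (adjusted p = 0.0854), Cyp26b1 -6.24 and Rarres2 2.02. The Cyp26a1 calls were lost in the omentum (adjusted p = 0.173) and in the mean over depots (adjusted p = 0.0657), where 2 members then passed. The differences between depots were 6.37 for Cyp26b1 (adjusted p = 0.000474) and 3.51 for Rarb (adjusted p = 0.00296).

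Among mesothelial cells of the 3 depots Cyp26b1 and Rarb were called, against 12.3% of all genes. The Cyp26b1 call (range 2.48, adjusted p = 0.0360) was lost without any 1 mesentery replicate or without omentum replicate 1 or 3, at ranges of 2.25, 2.55, 2.69, 2.59 and 1.99. By pairs, Cyp26b1 was called between omentum and mesentery (5.15% of all genes), Rarb between omentum and epididymal fat (10.4%) and Rarb between mesentery and epididymal fat (4.18%). Rarres2 did not pass across these depots (range 0.77, adjusted p = 0.190).

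Across the 9 fibroblast tissues 8 of 9 members were called, against 44% of all genes tested, and Rara was not. Rxra had a range of 1.11 (adjusted p = 0.000249), which was 0.98 without lymph node replicate 3, and Rarb a range of 3.02, which was 4.01 without it. Bone stood out by number, with 6 members called. Cyp26a1, Crabp1, Crabp2 and Rarg were higher and Rarb and Rarres2 lower, where 19.5% of all genes were called in either direction. Crabp2 had to be among them, as said above, and is in the count of 8 for the same reason. In the lymph node Cyp26b1 was higher and Rarb lower (16.4% of all genes). Without lymph node replicate 2 it had 5 called members, with Crabp1 (2.06, adjusted p = 0.00855) and Rxra (1.04) higher and Rarg (-1.13, adjusted p = 0.0279) lower besides. Crabp1, which missed the threshold with all libraries (adjusted p = 0.0513), was also called without any 1 of 8 fibroblast libraries of other tissues, at up to 2.09 without spleen replicate 2. The pancreas had Cyp26a1 higher and Cyp26b1 lower (11%), and its acinar RNA was present in both libraries, so its part in these values was not tested.

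The other tissues had 1 called member or none. Cyp26b1 was called in the mesentery (3.5% of all genes), in epididymal fat (4.43%) and in inguinal fat (6.3%), and Rarb in brown adipose tissue (6.41%). Rarb in the mesentery had 0.99 ± 0.26 (adjusted p = 0.0169), at the edge of the required size, and passed it under several alternatives. Without brown adipose replicate 3, Crabp1 (1.88, adjusted p = 0.0364) and Rarres2 (1.05) were called in brown adipose tissue. The omentum had no called member by edgeR or DESeq2 (10% of all genes by edgeR), with 4 at an unadjusted p under 0.05. Among them Cyp26b1 passed on adjusted p but not on size (-0.88, adjusted p = 0.0356). The spleen had none by either tool (3.88%) and none at an unadjusted p under 0.05.

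**Figure D5:**
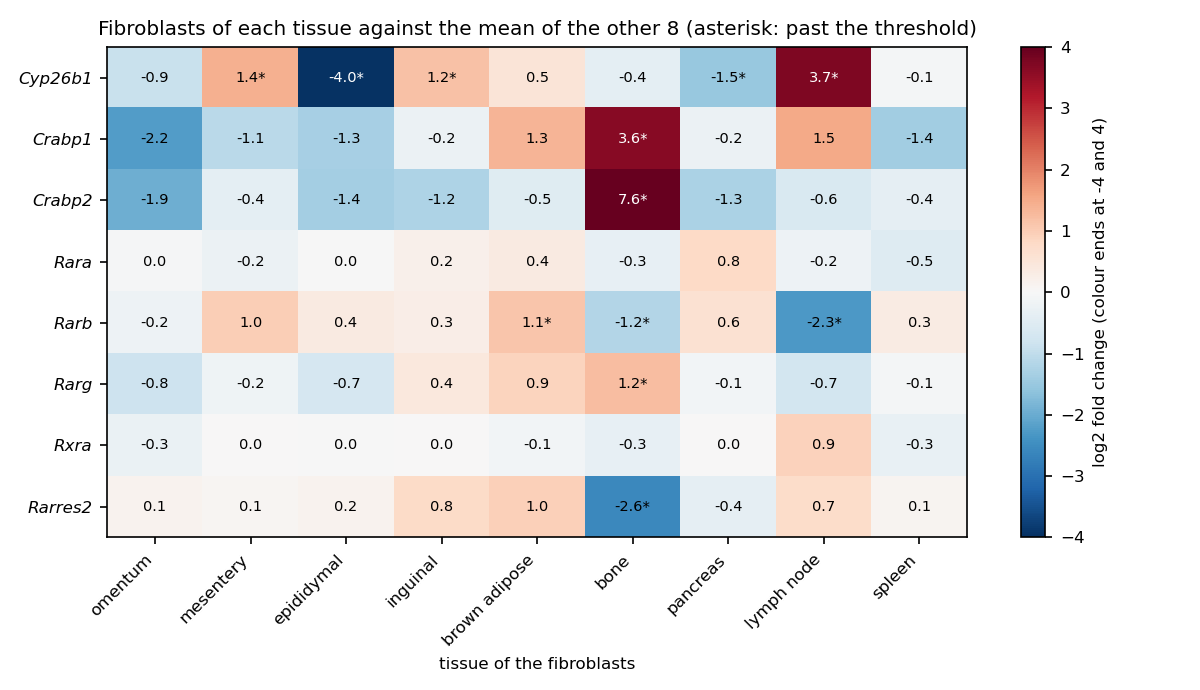
Log2 fold change of 8 members in the fibroblasts of each tissue against the mean of the other 8, coloured from blue (lower) to red (higher); an asterisk marks an adjusted p under 0.05 and a change of at least 1. Cyp26a1 is not drawn because 4 tissues have no count of it. The bone column holds the most asterisks, and Cyp26b1 changes sign between the lymph node (3.7) and epididymal fat (-4.0).

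Skeletal muscle RNA moved with the bone group in level, all 4 markers being detected, at 328 to 4720 CPM in bone and 0.57 to 23.0 CPM in the other fibroblasts. Its part in the bone values was not tested. Bone replicate 3, with the least muscle RNA, had 18.4 CPM of Crabp2, 12.8 of Cyp26a1 and 23.3 of Rarg, between the values of replicates 1 and 2. It had more Crabp1 than either (2.76 CPM), and less Rarb (1.26 against 4.38 and 4.50 CPM) and Rarres2 (72.9 against 143 and 99.0 CPM). With replicates 1 and 2 left out, a setting chosen after seeing the data, Crabp1 differed by 4.02, Rarg by 1.41, Rarb by -2.61 and Rarres2 by -3.11. That setting leaves 1 bone library, whose own spread cannot be measured and which still held 328 CPM of the muscle genes. It therefore did not remove the muscle RNA.

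The genes that supply retinoic acid are given for context, from lists that overlap in part (5 genes are in 2 of them). Of 21 tested genes of retinoid uptake, storage and oxidation, 10 were called in the mean mesothelial comparison, 4 higher and 6 lower, beside 12.3% of all genes higher and 9.08% lower. Aldh1a3, which makes retinoic acid, was lower in mesothelial cells by -5.30 ± 0.16 (adjusted p = 4.94e-23), and Aldh1a2, which makes it too, was higher by 1.74 ± 0.24 (adjusted p = 7.06e-07). In the omentum the Aldh1a2 libraries of both cell types overlapped, at 503, 491 and 535 CPM in mesothelial cells and 544, 476 and 495 CPM in fibroblasts. Epididymal mesothelial cells, low in Rarb, had 142, 165 and 145 CPM of Aldh1a2 but 1070, 1090 and 933 CPM of Aldh1a1, the highest of any group. In bone 9 of the 21 were called, 1 higher and 8 lower, beside 19.5% of all genes in either direction. Among the 9 were Aldh1a1 (-2.57 ± 0.20, adjusted p = 1.17e-12) and Aldh1a3 (-1.42 ± 0.20, adjusted p = 4.71e-07).

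Of 10 tested genes known to respond to retinoic acid in other settings, 6 were called in the mean mesothelial comparison, 4 higher and 2 lower, against the same 12.3% and 9.08% of all genes. Tgm2, a cross-linking enzyme, was higher by 2.03 ± 0.12 (adjusted p = 1.50e-15), Rarres1 by 4.57 ± 0.40 (adjusted p = 1.87e-12) and the retinol transporter gene Stra6 by 4.15 ± 0.33 (adjusted p = 3.75e-12). Nrip1, a co-repressor of nuclear receptors, was lower by -1.52 ± 0.11 (adjusted p = 1.10e-13). The median change of the 10 was 0.67, beside 0.11 over all genes. In bone, where Cyp26a1 and Crabp2 were high, 6 of these 10 were called, 1 higher and 5 lower (19.5% of all genes in either direction), with a list median of -0.84 beside 0.03.

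Of 10 tested partner and co-regulator genes, 4 were called in the mean mesothelial comparison, 1 higher and 3 lower (12.3% and 9.08% of all genes). Fabp5, which carries retinoic acid to another nuclear receptor, was higher (1.42 ± 0.24, adjusted p = 1.69e-05). Nrip1, the coactivator gene Ncoa1 (-1.36 ± 0.13, adjusted p = 8.49e-11) and the RXR gene Rxrg (-1.41 ± 0.41, adjusted p = 0.00578) were lower. By depot Rxrg was lower in the omentum (-1.97 ± 0.49, adjusted p = 0.00240) and in the mesentery (-2.81 ± 0.72, adjusted p = 0.00287), and had 0.57 ± 0.76 in epididymal fat (adjusted p = 0.599), where the libraries of both cell types overlapped. Rxrg was highest in bone, at 9.08, 10.4 and 7.58 CPM, and in inguinal fat, at 5.23, 9.80 and 8.26 CPM. In bone it was higher than in the other tissues by 2.77 ± 0.24 (adjusted p = 1.83e-11), while Rxra there was -0.33 ± 0.15 (adjusted p = 0.106). In the lymph node Ppard, the receptor that Fabp5 serves, was higher (1.78 ± 0.24, adjusted p = 4.72e-07) and Fabp5 lower (-2.97 ± 0.43, adjusted p = 2.63e-06).

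The genes whose 12 group means on the log2 CPM scale ran most like each member are given as a description, with Pearson's r over the 12 groups, which share library and depth. Cyp26a1 ran most like Galnt3 (0.959), Bglap (0.936) and Panx3 (0.936), all highest in bone, where the osteocalcin gene Bglap reached 14800 CPM. Crabp1 ran most like the osteoblast transcription factor gene Runx2 (0.952), and then like Gcn1l1 (0.941) and Xpot (0.933). Crabp2 ran most like the muscle genes Cdh15 (0.984) and Myog (0.980), and then like Clec3a (0.979). Cyp26b1 ran most like Vegfa (0.905) and Abcc9 (0.896), and Rxra like Vtn (0.971) and Notch1 (0.968), all 4 highest in the lymph node. Rarb ran most like Tmem63a (0.921), Mtmr11 (0.915) and Flnc (0.912), all highest in omentum mesothelial cells, and Rarres2 like Adar (0.965), Tmem140 (0.964) and Tapbpl (0.939), highest in mesentery mesothelial cells. Rara ran most like Cxxc5 (0.949) and Rarg like Rnaseh2c (0.934). Between members the closest pairs were Cyp26a1 with Crabp2 (0.915) and Crabp1 with Crabp2 (0.772), and the most opposed Crabp2 with Rarres2 (-0.804). Crabp2 passed the filter through bone alone, so its r with any gene is set largely by the bone group. Cyp26a1 had a mean of 12.4 CPM in bone and at most 0.381 CPM in any other group, so the same holds for it. For these genes r does not show a shared pattern over the other groups.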

How the data were processed

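The authors deposited whole-number read counts per gene, 1 table a library; per the file headers these are uniquely aligned reads. Salmon and GRCm38 stand in the submitters' processing notes. How Salmon relates to that header, the annotation release and the strand setting are not given in the sources used here. Groups follow the labels. The main test was edgeR 4.0.16 (quasi-likelihood F-test, TMM scaling, filterByExpr with a minimum count of 10) in R 4.3.3, in 1 fit of 34 libraries and 12 groups. A gene was called at an adjusted p under 0.05 (Benjamini-Hochberg over 25705 genes) and a log2 change of at least 1. For tests over several groups the change is the range of group effects. CPM use TMM-scaled totals, except marker sums, which use plain totals. TPM use exon lengths of GENCODE M21, also the source of gene positions (from 1, GRCm38). Of 51826 identifiers 51633 had a symbol. Alternatives were DESeq2 1.42.0, other scalings, no filter, replicate blocks, fits on the compared groups and each library left out. The fit was tested on simulated counts. Each simulated gene had 1 mean over all groups before a change was planted, and no quasi-likelihood spread of its own. Recovery may therefore be lower in the real data, and genes near 0 in most groups were not represented. Of 50 changes of 4-fold it recovered 50 in the mean mesothelial comparison, 50 in bone and 49 in the lymph node. At 2-fold, the required size itself, it recovered 26, 21 and 27 of 50 in that order, and false calls were 0, 3 and 3. No library was a copy of another of its group (lowest chi-square over its degrees of freedom for any replicate pair, 24.8). Libraries of different groups were not compared in this way. Named genes were all 9 members, up to 4 called genes per pathway list and comparison, Aldh1a1 to Aldh1a3, and the most alike genes; a part of these is printed. Members and lists were chosen with earlier results of these data known. Bounds from counts cover counting error only.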

Additional observations from a re-analysis of the deposited data

Results flagged for a closer look

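The difference between mesothelial cells and fibroblasts in Cyp26b1 was not the same in the 3 depots by the interaction test (adjusted p = 3.23e-06, edgeR), at -1.84 for the omentum, -6.36 for the mesentery and 0.14 for epididymal fat. For Rarb the interaction test gave an adjusted p of 0.000214, with 2.47, 1.19 and -0.85 in the same order. For both genes the call held under every alternative run, including each library left out.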

How the results depend on the processing

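The numbers shared by replicates were not treated as pairs: over 9 same-numbered pairs the correlation of deviations ran from -0.249 to 0.231, 2 were over 0.1, and 2 mesothelial libraries correlated best with their own number. With a replicate block within depot 3 members were called in the omentum, where Rara lost its call (-1.48, adjusted p = 0.0581, edgeR) and Cyp26a1 did not pass the filter on low counts, and 2 in epididymal fat, where Rarb gained one (-1.01, adjusted p = 0.00547) and Cyp26b1 became -0.05; Rara gained one in the mean (-1.08, adjusted p = 0.00985). The block over all groups changed no call of a member. In the comparison of mesentery fibroblasts with the other tissues 2 members instead of 1 were called with RLE or upper-quartile scaling, without the filter, in the fit on the compared groups, with DESeq2 and under both settings added after seeing the data, since Rarb, at 0.99, then passed a change of 1. With DESeq2 5 members were called in the mean mesothelial comparison (Crabp1 and Rara added), 2 between omentum and epididymal and 2 between mesentery and epididymal mesothelial cells, and 1 in the pancreas. In the fit on the compared groups 1 member was called across mesothelial depots, and 1612 genes between omentum and epididymal mesothelial cells. Without the filter 1904 genes were called between mesentery and epididymal mesothelial cells. Leaving out libraries with 2000 acinar CPM or more (which drops the pancreas as a group) 1 member was called in the omentum, 1 across mesothelial depots and 0 between omentum and mesentery mesothelial cells, with 771 genes. Without those of at least 2000 muscle CPM 2 were called in brown adipose tissue. The cause of these changes was not tested beyond the fewer libraries. Directions that turned belonged to uncalled values: with a library left out, in epididymal fat Cyp26a1 ran from 0.00 to 4.87, Cyp26b1 from -0.45 to 0.69 and Crabp1 from -1.36 to 1.52, Crabp2 from -0.98 to 0.29 in the mean and from -1.38 to 0.01 in the mesentery, and Rarg from -0.77 to 0.07 in the mesentery. With 1 library left out, members called ran from 3 to 4 in the mean mesothelial comparison and by depot from 3 to 6 for the omentum, 2 to 4 for the mesentery and 0 to 1 for epididymal fat. They ran from 1 to 2 across mesothelial depots, 0 to 1 between omentum and mesentery and 1 to 2 between omentum and epididymal mesothelial cells. Among fibroblasts they ran from 5 to 6 in bone, 2 to 5 in the lymph node, 1 to 2 in the mesentery, brown adipose tissue and pancreas, and 0 to 1 in inguinal fat. All genes called ran from 1767 to 3418 for the difference between depots, 1312 to 2792 and 845 to 1428 for omentum against epididymal and mesentery mesothelial cells, 1862 to 3063 for the pancreas and 476 to 1068 for the spleen. Depth limits Cyp26a1, Crabp1 and Crabp2 outside bone, where a few counts set the values.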
